A study of Homo sapiens with 24 samples.

Results

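Genes that sense foreign or misplaced nucleic acid, pass the signal on, or remove the nucleic acid that would set it off were followed across leukemia cells given ascorbic acid, a PARP inhibitor, or both. They were taken by name from the gene table: DDX58, IFIH1, DHX58, MAVS, TBK1, IRF3, TREX1, SAMHD1, ADAR and ZBP1, which are 10 of its 58735 genes. The RNA came from THP-1 and MOLM-13. These are established human lines of acute myeloid leukemia, and both carry the MLL-AF9 fusion. They were grown in culture and treated for 72 h. In each line the 4 groups received vehicle (PBS and DMSO), L-ascorbic acid (LAA, vitamin C) at 250 µM, olaparib at 1 µM, or LAA and olaparib together at those doses. Each of the 8 groups has 3 poly(A)-selected libraries, 24 in all. The labels number the replicates but do not say whether they came from separate cultures, so a p-value measures only the spread between these libraries. No gene was deleted or added in any group, and the results concern 2 lines in culture.

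Cells carry receptors that bind RNA or DNA found where it should not be. RIG-I (gene DDX58) and MDA5 (gene IFIH1) bind RNA with features of viral RNA in the cytosol and signal through the mitochondrial adaptor MAVS to the kinase TBK1 and the transcription factor IRF3, which turns on interferon genes, while LGP2 (gene DHX58) is a related helicase that tunes them. TREX1 digests DNA, SAMHD1 breaks down the nucleotides from which DNA is made, ADAR edits adenosine to inosine in paired RNA so that MDA5 does not bind it, and ZBP1 binds nucleic acid in the left-handed Z form and can start cell death. Interferon in turn raises the mRNA of several of these genes.

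Each library held 18666259 to 25265870 counted reads, and 15186 to 15960 genes had at least 10 counts. The share of counts from mitochondrially encoded genes was between 6.63% and 11.02%. It differed between groups: in MOLM-13 it was 6.67% to 6.74% in vehicle, 7.01% to 8.14% with LAA, 8.22% to 11.02% with olaparib and 8.73% to 9.31% with both, and in THP-1 it was 6.81% to 7.49% in vehicle, 6.94% to 7.70% with LAA, 6.63% to 7.12% with olaparib and 7.77% to 9.47% with both. Its part in the results below was not tested. Myeloid markers (10 listed, such as SPI1 and LYZ) summed to a group mean between 1177 and 1478 CPM (counts scaled to the library size), with 9 or 10 of them above 0.5 CPM. Single markers moved apart under that sum: in THP-1 vehicle and with both compounds LYZ was at 147 ± 7.56 and 396 ± 27.3 CPM (SD, n = 3), CD14 at 4.72 ± 0.769 and 13.003 ± 1.72, ITGAM at 69.1 ± 1.21 and 35.04 ± 5.20, and CSF1R at 106 ± 2.87 and 77.2 ± 4.20. The lists for other cells were far lower, at most 198 CPM for T and NK cells (CD4 and NKG7 gave most of it), 20.6 CPM for B cells, 8.89 CPM for epithelial cells and fibroblasts and 1.42 CPM for erythroid cells and megakaryocytes. The 2 lines were close: the vehicle libraries labelled MOLM-13 and THP-1 differed in 765 of 17089 genes, and the median size of the difference over all genes was 0.15 on the log2 scale. A set of 15 genes that an earlier look at these data had found nearly silent in THP-1, MTAP among them, summed to 31.6 ± 0.888 CPM (SD, n = 3) in MOLM-13 vehicle and 19.2 ± 1.37 with olaparib. The same sum was 5.33 ± 0.4996 CPM with LAA and 4.08 ± 1.04 with both compounds, against group means of 0.229 to 0.361 CPM in THP-1. The libraries labelled MOLM-13 thus differ by treatment in these 15 genes, below called the line set. The set was chosen from these same data and not from outside markers of the line, so these sums do not establish which cells the libraries hold. Whether the libraries labelled MOLM-13 hold only MOLM-13 cells is in doubt and was not tested. Each MOLM-13 value below is therefore that of the libraries labelled so, and each difference between lines is one between labels. In bulk RNA, fewer cells of a kind and less RNA per cell cannot be told apart.

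Of the 10 genes, 8 had enough counts to be tested in each line. TREX1 had no count in any library, and ZBP1 had 27 counts over all 24. By FPKM, the deposited unit that corrects for gene length, the order in THP-1 vehicle was ADAR at 42.7 ± 1.41 and SAMHD1 at 40.4 ± 1.07 (SD, n = 3), then IRF3 at 25.4 ± 1.40, TBK1 at 10.96 ± 0.241 and MAVS at 6.51 ± 0.431. The RNA receptors were lowest, IFIH1 at 5.04 ± 0.377, DDX58 at 3.78 ± 0.450 and DHX58 at 1.84 ± 0.138 FPKM. In MOLM-13 vehicle SAMHD1 led with 52.8 ± 3.10 FPKM, ADAR followed with 30.5 ± 3.82 and IRF3 with 25.5 ± 2.45, and the libraries of ADAR and IRF3 overlapped. DDX58 and IFIH1 were level there, at 3.07 ± 0.184 and 3.05 ± 0.181 FPKM. With both compounds in THP-1 the order changed: DDX58 reached 17.2 ± 0.706 and IFIH1 17.0 ± 0.279 FPKM, which put both above TBK1 at 8.75 ± 0.900 and MAVS at 5.81 ± 0.117. These 2 receptors did not differ from each other in FPKM beyond their spread in that group.

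**Figure D1:**
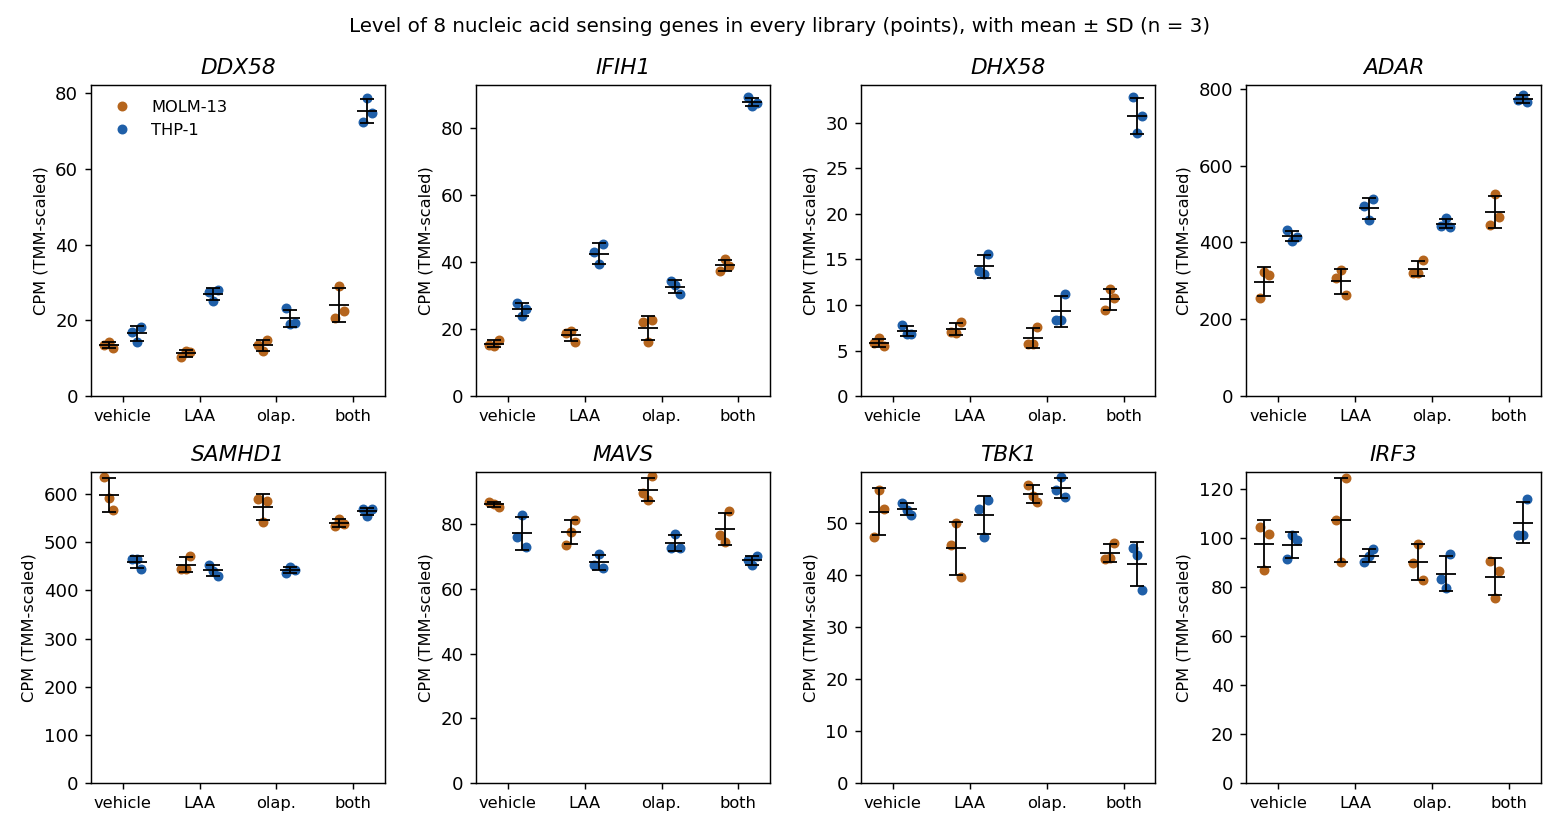
Level of the 8 tested genes in CPM (TMM-scaled) in each library (points) of the 4 treatments, with the mean and SD of 3 libraries, for MOLM-13 (brown) and THP-1 (blue). The 3 THP-1 libraries with both compounds lie above all other libraries for DDX58, IFIH1, DHX58 and ADAR, and below all other THP-1 libraries for TBK1.

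In what follows a gene is called where edgeR's quasi-likelihood test gave a Benjamini-Hochberg adjusted p under 0.05 over all genes tested. In THP-1, LAA alone raised 4 of the 8 genes (DDX58, IFIH1, DHX58 and ADAR) and lowered 0. Over all genes that comparison called 0.937% higher and 0.551% lower. Olaparib alone called 0 of the 8 in THP-1, against 0.184% of all genes higher and 0.0857% lower (44 genes, and 6 to 124 under the alternatives). By edgeR's unadjusted p under 0.05 there were 4 (DDX58, IFIH1 and DHX58 higher, and IRF3 lower at -0.19 on the log2 scale). The share of all genes at that unadjusted threshold was not counted, here or below, so such counts cannot be set against it. DESeq2 called 1 (IFIH1) and limma on FPKM called 0. Both compounds together raised 5 (DDX58, IFIH1, DHX58, ADAR and SAMHD1) and lowered TBK1, where 13.5% of all genes were called higher and 13.5% lower. The median log2 fold change of the 8 genes was 0.59, against -0.01 over all genes tested.

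In MOLM-13, LAA alone called only SAMHD1, which fell, against 0.792% of all genes higher and 1.08% lower. Olaparib alone called 0 of the 8, against 0.00619% of all genes higher and 0% lower (1 gene, and 0 to 194 under the alternatives), with 1 gene (IFIH1) at an unadjusted p under 0.05 in edgeR and 0 called by DESeq2 or by limma on FPKM. Both compounds raised 4 (DDX58, IFIH1, DHX58 and ADAR) and lowered 0, where 4.85% of all genes were called higher and 7.35% lower. The median over the 8 genes was 0.28 on the log2 scale, against 0.00 over all genes. The same 4 genes were thus raised under both line labels by the 2 compounds together. The doubt given above about the libraries labelled MOLM-13 applies here.

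With both compounds against vehicle the 3 RNA receptors had the largest fold changes of the 8 genes in each line. DDX58 in THP-1 stood at 17.0, 14.4 and 18.3 CPM in vehicle, 27.6, 25.1 and 28.1 with LAA, 23.2, 19.1 and 19.2 with olaparib, and 72.4, 78.7 and 74.6 with both. The groups with LAA and with both lay wholly above vehicle and apart from each other, and olaparib lay wholly above vehicle too, by a small gap. The rise was 1.62-fold with LAA (log2 fold change 0.70 ± 0.10 SE, edgeR adjusted p = 0.000101) and 4.51-fold with both (2.17 ± 0.10, adjusted p = 1.23e-15). With olaparib alone the log2 fold change of 0.31 ± 0.10 did not pass (edgeR adjusted p = 0.303).

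In MOLM-13, DDX58 was at 13.4, 14.3 and 12.7 CPM in vehicle, 10.2, 12.02 and 11.6 with LAA, 13.6, 12.01 and 14.85 with olaparib, and 20.7, 29.15 and 22.4 with both. Only the group with both compounds lay above vehicle, and the LAA libraries all lay below it without passing the test (log2 fold change -0.25 ± 0.14, edgeR adjusted p = 0.419). The rise with both was 1.80-fold (0.85 ± 0.13, edgeR adjusted p = 0.000257).

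IFIH1 encodes MDA5, which binds long paired RNA. In THP-1 it was at 27.9, 23.96 and 25.9 CPM in vehicle, 43.0, 39.3 and 45.3 with LAA, 34.3, 33.2 and 30.4 with olaparib, and 89.05, 86.6 and 87.5 with both. All 4 groups were apart, in the order vehicle, olaparib, LAA and both. LAA gave a 1.64-fold rise (log2 fold change 0.71 ± 0.08, edgeR adjusted p = 4.6e-06) and both compounds a 3.36-fold rise (1.75 ± 0.08, adjusted p = 3.34e-15). Olaparib's 0.33 ± 0.09 missed the threshold in edgeR (adjusted p = 0.137) and passed it in DESeq2 (adjusted p = 0.0334).

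In MOLM-13, IFIH1 stood at 15.3, 15.0 and 16.8 CPM in vehicle, 18.8, 19.5 and 16.3 with LAA, 22.1, 16.1 and 22.7 with olaparib, and 37.5, 40.8 and 38.9 with both. The single compounds overlapped vehicle, and the group with both lay wholly above every other. Its rise was 2.49-fold (log2 fold change 1.31 ± 0.12, edgeR adjusted p = 4.01e-07).

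DHX58 encodes LGP2, a helicase without the signalling domain of RIG-I and MDA5. In THP-1 it was at 7.76, 6.80 and 6.85 CPM in vehicle, 13.7, 13.4 and 15.6 with LAA, 8.34, 8.35 and 11.2 with olaparib, and 32.8, 28.8 and 30.8 with both. The LAA libraries all lay above the vehicle ones (1.99-fold, log2 fold change 0.99 ± 0.13, edgeR adjusted p = 3.23e-05), and those with both compounds were higher again (4.28-fold, 2.10 ± 0.13, adjusted p = 8.52e-13). In MOLM-13 the values were 5.81, 6.36 and 5.48 in vehicle, 7.002, 6.97 and 8.13 with LAA, 5.71, 5.75 and 7.61 with olaparib, and 9.47, 11.7 and 10.7 with both. There only both compounds gave a call (1.82-fold, 0.86 ± 0.16, edgeR adjusted p = 0.00105).

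Promoter sequence was available for 7 of the 10 genes in RefSeq's table (GRCh38.p14, 9 starts, DDX58 listed there as RIGI). It was searched on both strands over 250 bases before each start for 2 motifs of interferon-responsive promoters, the core of the interferon-stimulated response element (GAAANNGAAA) and the gamma-activated site (TTCNNNGAA). IFIH1 held 3 matches to the response element core, which 3.02% of all 35116 promoters hold at least once, and none to the gamma-activated site, which 6.57% hold. The other windows, of ADAR (3 starts), DDX58, TREX1, TBK1, MAVS and SAMHD1, held neither pattern of letters. Shown are the 170 bases before the start of IFIH1, the receptor with the matches, and of ADAR at its first listed start, which rose with it but has none. They are at chr2:162318685-162318854 and chr1:154627998-154628167, both on the minus strand, and capitals mark the matches.
IFIH1: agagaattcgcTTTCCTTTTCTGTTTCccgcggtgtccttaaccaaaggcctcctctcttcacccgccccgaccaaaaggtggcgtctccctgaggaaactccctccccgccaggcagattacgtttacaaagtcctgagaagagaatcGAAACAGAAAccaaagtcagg
ADAR: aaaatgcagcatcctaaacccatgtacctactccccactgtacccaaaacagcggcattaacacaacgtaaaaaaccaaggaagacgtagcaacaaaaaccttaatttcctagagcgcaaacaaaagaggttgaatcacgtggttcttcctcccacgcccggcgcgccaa
The first capital run joins 2 overlapping matches read on the opposite strand, at positions -159 to -150 and -153 to -144 from the start, and the second is a match on the gene's own strand at -21 to -12. A match is a description of letters and not evidence of binding.

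Downstream of the receptors the differences were small. MAVS, the adaptor, was called in none of the 16 comparisons in the fits per line or between lines by edgeR. In 1 fit of all 24 libraries it was called lower for both compounds against olaparib in MOLM-13 (log2 fold change -0.21, edgeR adjusted p = 0.0425). Its THP-1 libraries were at 76.0, 82.8 and 72.9 CPM in vehicle, 67.6, 70.8 and 66.4 with LAA, 72.8, 77.0 and 72.6 with olaparib, and 69.1, 67.5 and 70.2 with both. The LAA and combined groups lay below vehicle, by a log2 fold change of -0.18 ± 0.07 (edgeR adjusted p = 0.250) and -0.17 ± 0.07 (adjusted p = 0.0654). In MOLM-13 the range was 85.5 to 86.9 CPM in vehicle, 73.8 to 81.4 with LAA, 87.7 to 94.9 with olaparib and 74.7 to 84.1 with both. The 2 groups with LAA again lay below vehicle without a call, at -0.15 ± 0.07 (edgeR adjusted p = 0.367) and -0.13 ± 0.07 (adjusted p = 0.270).

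TBK1, the kinase that phosphorylates IRF3, went the other way from the receptors. In THP-1 it was at 53.9, 52.4 and 51.5 CPM in vehicle, 52.7, 47.3 and 54.3 with LAA, 56.3, 58.7 and 55.0 with olaparib, and 45.1, 43.7 and 37.2 with both. The libraries with both compounds lay below all others, and the fall against vehicle was 1.26-fold (log2 fold change -0.33 ± 0.08, edgeR adjusted p = 0.00334). In MOLM-13 the values were 47.3, 56.3 and 52.7 in vehicle, 45.6, 49.9 and 39.6 with LAA, 57.3, 55.1 and 53.9 with olaparib, and 43.0, 43.3 and 46.1 with both. The combined group was again below vehicle, by -0.24 ± 0.09, which did not pass (edgeR adjusted p = 0.110). An antisense gene, AC135279.3, shares 14.7% of TBK1's exon bases but had 47 counts in all against 25121 for TBK1.

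IRF3, the transcription factor, was in THP-1 at 91.2, 101 and 99.3 CPM in vehicle, 90.0, 92.6 and 95.3 with LAA, 83.2, 79.5 and 93.3 with olaparib, and 101, 101 and 116 with both. The vehicle, LAA and olaparib groups overlapped. The libraries with both compounds lay above all of them, but only just above vehicle (lowest 101.3 CPM against a highest vehicle value of 101.1). The log2 fold change with both compounds against vehicle was 0.12 ± 0.07 (edgeR adjusted p = 0.250). In MOLM-13 it was at 104, 86.7 and 102 CPM in vehicle, 107, 90.1 and 125 with LAA, 89.8, 97.4 and 82.7 with olaparib, and 90.4, 75.6 and 86.6 with both, with a log2 fold change of -0.21 ± 0.11 for both (edgeR adjusted p = 0.222). IRF3 shares 19.3% of its exon bases with BCL2L12 on the opposite strand. The labels name no strand-specific kit or counting, so reads from that stretch cannot be assigned with certainty.

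ADAR was the member with the highest length-corrected level in THP-1. Its THP-1 libraries were at 432, 403 and 415 CPM in vehicle, 495, 458 and 513 with LAA, 443, 463 and 441 with olaparib, and 770, 783 and 765 with both. The combined group lay far above the rest, at 1.84-fold vehicle (log2 fold change 0.88 ± 0.06, edgeR adjusted p = 1.12e-12). The rise with LAA was small, 1.17-fold (0.23 ± 0.06, adjusted p = 0.0312), and its call did not last: without any 1 of the vehicle libraries, or without LAA replicate 1 or 3, the edgeR adjusted p was 0.0545 to 0.213. In MOLM-13 ADAR was at 255, 322 and 316 CPM in vehicle, 307, 327 and 263 with LAA, 321, 321 and 354 with olaparib, and 445, 525 and 467 with both. The combined group lay above all others there too, with a 1.61-fold rise over vehicle (0.69 ± 0.10, edgeR adjusted p = 9.96e-05).

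SAMHD1, a triphosphohydrolase of deoxynucleotides, differed between the lines in both level and response. In THP-1 it was at 466, 466 and 445 CPM in vehicle, 454, 441 and 431 with LAA, 435, 449 and 443 with olaparib, and 569, 555 and 569 with both. The first 3 groups overlapped, and the combined group lay above them by 1.22-fold against vehicle (log2 fold change 0.29 ± 0.05, edgeR adjusted p = 0.000119). In MOLM-13 it was at 637, 593 and 567 CPM in vehicle, 444, 446 and 471 with LAA, 590, 543 and 587 with olaparib, and 534, 549 and 538 with both. LAA lowered it 1.32-fold (-0.40 ± 0.07, edgeR adjusted p = 0.00395), to a range that overlaps that of THP-1 vehicle. With both compounds it lay in between, -0.15 ± 0.07 against vehicle (edgeR adjusted p = 0.184). The 15-gene line set fell in the same MOLM-13 LAA libraries, from 31.6 to 5.33 CPM, and its part in the fall of SAMHD1 was not tested. SAMHD1 shares 10.3% of its exon bases with TLDC2, which had 156 counts in all against 256680.

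TREX1, the DNA exonuclease, could not be measured here. All of its 1515 exon bases (100%) also lie in exons of ATRIP, a gene on the same strand, in GENCODE 29, whose genes have the same ids, ends and exon lengths as the deposited table for all 58735 genes. ATRIP had 9818 counts over the 24 libraries, between 310 and 526 in each, and TREX1 had 0. Among protein-coding genes whose exons are fully covered by other genes, 225 of 312 (72.1%) were at 0 in every library, against 2198 of 18818 (11.7%) of those less than 50% covered. A count of 0 for TREX1 is thus a listed value and gives no level of its mRNA.

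**Figure D2:**
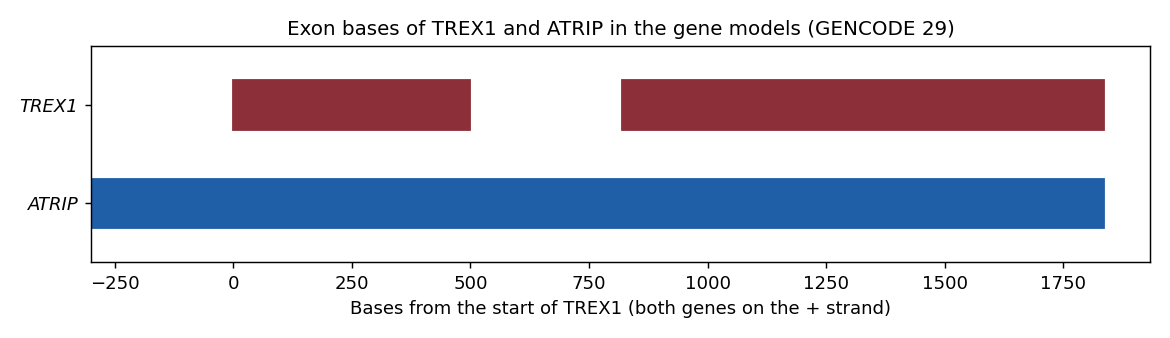
Exon bases of TREX1 (red) and ATRIP (blue) in the gene models, by distance in bases from the start of TREX1. Both blocks of TREX1 lie within a block of ATRIP exon bases that reaches from before its start to its end, so that no TREX1 exon base is free of ATRIP.

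ZBP1, the Z-form sensor, was barely detected. It had 5, 6 and 3 counts in the THP-1 libraries with both compounds, 2, 0 and 6 with LAA, and 0 in all 3 vehicle and all 3 olaparib libraries. In MOLM-13 it had 1, 2 and 0 counts with both, 2, 0 and 0 with LAA, and again 0 in the 6 libraries without LAA. Every one of the 27 counts thus came from a library with LAA, but most libraries hold no more than the 3 counts that a count of 0 still allows, which is 0.119 to 0.161 CPM at these depths. The gene was below the filter in both lines and was not tested. That limit covers counting error only.

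The cells with both compounds were also compared with each compound alone. In THP-1, the cells with both compounds against LAA alone had 5 genes called higher (DDX58 at 1.47 ± 0.10 on the log2 scale, IFIH1 at 1.04 ± 0.08, DHX58 at 1.11 ± 0.12, ADAR at 0.66 ± 0.06 and SAMHD1 at 0.35 ± 0.05) and TBK1 lower, beside 10.1% of all genes higher and 10.2% lower. The fall of TBK1 (-0.30 ± 0.08, edgeR adjusted p = 0.0106) lost its call without LAA replicate 3 (-0.26, adjusted p = 0.0671) or without the third library with both compounds (-0.22, adjusted p = 0.0764). Against olaparib alone 6 were higher, the same 5 and IRF3 (0.30 ± 0.07, edgeR adjusted p = 0.00295), and TBK1 was lower (-0.44 ± 0.08, adjusted p = 0.00023). That comparison called 12.3% of all genes higher and 11.9% lower. DDX58 had the largest value of the members in it, 1.87 ± 0.10, with DHX58 at 1.71 ± 0.13 and IFIH1 at 1.42 ± 0.08.

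In MOLM-13, both compounds against LAA alone compared groups with similar sums of the 15-gene line set (4.08 and 5.33 CPM). DDX58 (1.10 ± 0.13 on the log2 scale), IFIH1 (1.10 ± 0.12), ADAR (0.68 ± 0.10), DHX58 (0.53 ± 0.15) and SAMHD1 (0.25 ± 0.07) were higher, 5 in all, and IRF3 (-0.35 ± 0.11) was lower, beside 6.68% of all genes higher and 8.25% lower. 3 of these calls were lost in some fits with 1 library left out, which also have fewer libraries to test with. DHX58 lost it without LAA replicate 1 or 2 or combined replicate 2 or 3 (edgeR adjusted p 0.0591 to 0.146). SAMHD1 lost it without LAA replicate 1 or any combined replicate (0.0505 to 0.0969 in edgeR), and IRF3 without LAA replicate 1 or 3 or combined replicate 2 or 3 (0.0795 to 0.183 in edgeR). In those fits the log2 fold change was 0.45 to 0.52 for DHX58, 0.24 to 0.26 for SAMHD1 and -0.38 to -0.23 for IRF3. The IRF3 call was also lost with total-count scaling (edgeR adjusted p = 0.0754) and in limma on FPKM (adjusted p 0.0818 and 0.0823). Against olaparib alone DDX58 (0.84 ± 0.13), IFIH1 (0.94 ± 0.12), DHX58 (0.74 ± 0.16) and ADAR (0.53 ± 0.10) were the 4 higher, beside 2.89% of all genes higher and 4.59% lower. TBK1 was lower (-0.33 ± 0.09, edgeR adjusted p = 0.0393), and leaving out any of the 6 libraries of the 2 groups ended that call (adjusted p 0.0576 to 0.140), as did total-count scaling (edgeR adjusted p = 0.148) and limma on FPKM (adjusted p 0.0539 and 0.0545).

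Whether the compounds together did more than the 2 single effects added on the log2 scale was tested as an interaction. In THP-1 the single effects on DDX58 add to 1.01 and the combination gave 2.17, an excess of 1.17 ± 0.14 (edgeR adjusted p = 1.48e-06). For IFIH1 they add to 1.04 against 1.75 (excess 0.71 ± 0.12, edgeR adjusted p = 0.000177), and for ADAR to 0.34 against 0.88 (0.55 ± 0.08, adjusted p = 2.38e-05). For SAMHD1 the sum is -0.11 and the combination 0.29, an excess of 0.40 ± 0.07 (edgeR adjusted p = 0.000649). DHX58 had an excess of 0.72 ± 0.18 (edgeR adjusted p = 0.0143, or 0.0510 without vehicle replicate 1 and 0.0531 without olaparib replicate 1).

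IRF3 (0.38 ± 0.10, edgeR adjusted p = 0.0243) was the sixth gene with a positive term and TBK1 (-0.41 ± 0.12, adjusted p = 0.0300) the one with a negative term, where 4.04% of all genes were called higher and 3.54% lower. Leaving out vehicle replicate 2 or 3, LAA replicate 1, olaparib replicate 1 or 2, or the third combined library ended the calls of both IRF3 (edgeR adjusted p 0.0615 to 0.0827) and TBK1 (0.0606 to 0.103, here also without LAA replicate 3). In MOLM-13 the term was positive for DDX58 (1.09 ± 0.19, edgeR adjusted p = 0.00326) and IFIH1 (0.73 ± 0.17, adjusted p = 0.0294), 2 genes, beside 0.712% of all genes higher and 1.32% lower. The DDX58 call held in each of its 20 alternatives. Removing vehicle library 2 or 3, LAA library 1 or 3, olaparib library 2, or any combined library ended that of IFIH1 (edgeR adjusted p 0.0505 to 0.106). ADAR in MOLM-13 missed narrowly (0.52 ± 0.14, edgeR adjusted p = 0.0618) and was called without vehicle replicate 1 (0.0143), LAA replicate 2 (0.0274) or olaparib replicate 3 (0.0451). With all libraries kept it was called by DESeq2 (adjusted p = 0.0166) and by edgeR without a filter (0.000676) or in 1 fit of all 24 libraries (0.00554). SAMHD1 there (0.31 ± 0.10, edgeR adjusted p = 0.125) was called by DESeq2 (0.0239) and by edgeR with total-count scaling (0.0209) or in 1 fit of all 24 libraries (0.0193).

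**Figure D3:**
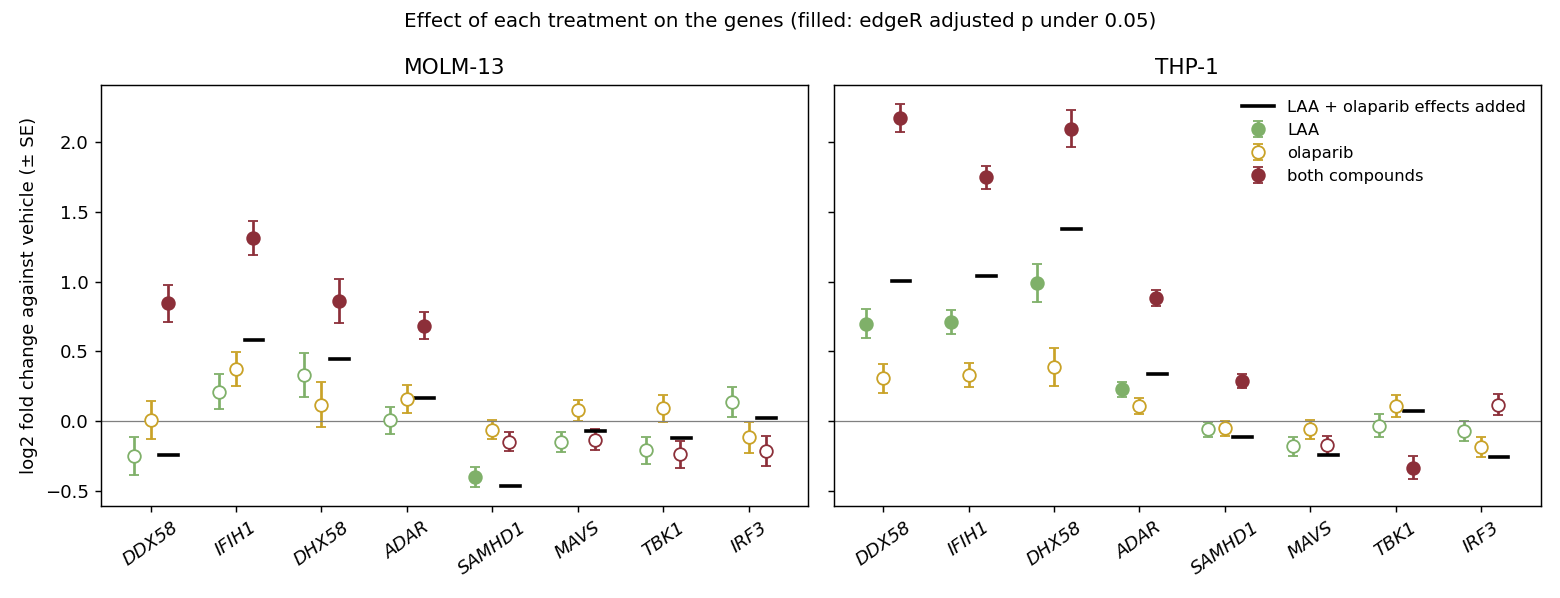
Log2 fold change against vehicle (± SE) of the 8 tested genes for LAA (green), olaparib (yellow) and both compounds (red) in each line, filled where edgeR's adjusted p was under 0.05, with a black bar at the sum of the 2 single effects. For DDX58 the combination lies above the bar by 1.17 in THP-1 and by 1.09 in MOLM-13.

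The lines were compared in 1 model of all 24 libraries. Without compound, IFIH1 (log2 difference THP-1 minus MOLM-13 of 0.72 ± 0.11, edgeR adjusted p = 2.21e-05) and ADAR (0.48 ± 0.08, adjusted p = 0.00017) were higher in THP-1, and SAMHD1 (-0.38 ± 0.06, adjusted p = 2.14e-05) was lower. Those 2 higher and 1 lower stand beside 2.49% of all genes higher and 1.99% lower. The LAA effect differed between lines for DDX58 alone (0.95 ± 0.17, edgeR adjusted p = 0.00689), where 0.129% of all genes were called higher and 0.0117% lower (24 genes, and 13 to 102 under the alternatives). That gene rose in THP-1 and had a value of -0.25 in MOLM-13. For SAMHD1 the difference of 0.35 ± 0.08 was at an adjusted p of 0.0833 in edgeR, at 0.00190 in DESeq2 and at 0.0493 in edgeR without MOLM-13 LAA replicate 3.

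The effect of both compounds was larger in THP-1 for 3 genes, DDX58 (1.34 ± 0.16, edgeR adjusted p = 4.06e-06), DHX58 (1.24 ± 0.20, adjusted p = 0.000237) and SAMHD1 (0.45 ± 0.08, adjusted p = 0.000961), beside 1.53% of all genes higher and 0.597% lower. For IFIH1 and ADAR, which rose in both lines, the difference between lines did not pass (0.44 ± 0.14, edgeR adjusted p = 0.106, though limma on log2(FPKM + 1) called it at 0.50 with an adjusted p of 0.0343, and 0.21 ± 0.11, adjusted p = 0.383). The olaparib effect differed for 0 of the 8 genes, with 0 at an unadjusted p under 0.05 in edgeR and 0 called by DESeq2, against 0% of all genes higher and 0.00585% lower. The sums of the 15-gene line set differ between treatments in MOLM-13 and lie between 0.229 and 0.361 CPM in THP-1, and their part in these differences was not tested.

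Other genes of the pathway were read from 7 lists by role, with 93 genes found in the table, of which 68 were tested in THP-1 and 66 in MOLM-13. With both compounds 21 of them rose and 7 fell in THP-1, and 11 rose and 5 fell in MOLM-13, beside the shares of all genes given above for those comparisons. LAA alone raised 5 in THP-1 (DDX60, EIF2AK2, IFI16, AIM2 and IRF7), beside 0.937% of all genes higher. In MOLM-13 it lowered RNF125 alone, beside 1.08% of all genes lower. Olaparib alone called 0 in either line, beside the small shares of all genes given above for it. By unadjusted p under 0.05 in edgeR there were 13 genes in THP-1 and 6 in MOLM-13 with olaparib alone, counted in either direction. The shares of all genes given above are for adjusted p. The share at the unadjusted threshold was not counted, so nothing is concluded from these numbers.

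Among the 16 regulators of RNA sensing, 5 rose and 3 fell in THP-1 with both compounds, beside 13.5% of all genes each way. In MOLM-13, 6 rose and 2 fell, beside 4.85% of all genes higher and 7.35% lower. The numbers that fell are near these shares. EIF2AK2, the kinase PKR that stops translation when it binds paired RNA, went from 85.2 ± 4.61 to 217 ± 5.23 CPM in THP-1 (SD, n = 3, 2.53-fold) and from 53.3 ± 7.06 to 120 ± 21.1 in MOLM-13 (2.25-fold). DDX60, a helicase described as a cofactor of RIG-I, rose 2.81-fold in THP-1 and 1.92-fold in MOLM-13. ZNFX1, a mitochondrial RNA-binding helicase, rose 1.86-fold and 1.51-fold. Among those that fell in both lines was RNF125, a ubiquitin ligase that marks RIG-I for destruction (1.53-fold lower in THP-1 and 1.91-fold in MOLM-13), which was chosen for mention after its values were seen.

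Of 12 genes of cytosolic DNA sensing tested in THP-1, 3 rose and 2 fell with both compounds, and of 11 in MOLM-13, 1 rose and 1 fell. Counts this small are near the shares of all genes (13.5% each way in THP-1, 4.85% higher and 7.35% lower in MOLM-13), so the single genes are given as such. IFI16, a DNA-binding sensor, rose from 53.2 ± 5.40 to 151 ± 3.74 CPM in THP-1 (2.81-fold) and from 27.0 ± 2.12 to 47.0 ± 6.48 in MOLM-13 (1.74-fold). TMEM173, which encodes the adaptor STING, fell from 501 ± 8.11 to 304 ± 13.9 CPM in THP-1 (log2 fold change -0.73 ± 0.06, edgeR adjusted p = 8.01e-11) and from 469 ± 12.5 to 315 ± 12.2 in MOLM-13 (-0.57 ± 0.07, adjusted p = 2.88e-05). Its interaction term was negative in both lines, -0.43 ± 0.08 in THP-1 (edgeR adjusted p = 0.000716) and -0.58 ± 0.10 in MOLM-13 (adjusted p = 0.00415). CGAS, the enzyme that makes the ligand of STING, named outside the rule for its role, did not pass in THP-1 (75.7 ± 3.19 CPM in vehicle and 79.1 ± 4.80 with both, edgeR adjusted p = 0.616) or in MOLM-13 (84.7 ± 9.64 and 70.6 ± 3.36, adjusted p = 0.0503).

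AIM2, an inflammasome sensor of DNA, had 3, 1 and 2 counts in the THP-1 vehicle libraries, 14, 21 and 12 with LAA, 8, 7 and 6 with olaparib, and 39, 43 and 57 with both. The 4 groups did not overlap, and the edgeR adjusted p was 1.67e-06 for both compounds and 0.0109 for LAA. Since vehicle is at or under the 3 counts that a count of 0 allows, no fold is given. In MOLM-13 it had 0 to 11 counts and was not tested.

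Of the endosomal Toll-like receptors and their adaptors, 4 of 8 rose in THP-1 with both compounds, beside 13.5% of all genes higher. In MOLM-13, 2 of 7 rose and 1 fell, beside 4.85% of all genes higher and 7.35% lower. MYD88, the common adaptor, rose 1.91-fold in THP-1 and 1.42-fold in MOLM-13, and the kinase IRAK1 1.55-fold and 1.26-fold. UNC93B1, which carries the receptors to the endosome, rose 1.25-fold in THP-1 and fell 1.17-fold in MOLM-13, a difference of 0.56 ± 0.10 between lines (edgeR adjusted p = 0.000761). The fourth gene, TLR7, named after its values were seen, was at few counts (8, 14 and 12 in THP-1 vehicle and 28, 40 and 38 with both, edgeR adjusted p = 0.0122).

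Of 15 kinases, adaptors and factors below the sensors, 3 rose in THP-1 with both compounds and 1 in MOLM-13, which is near the 13.5% and 4.85% of all genes called higher. IRF7, the interferon-inducible relative of IRF3, rose from 45.8 ± 4.53 to 149 ± 17.1 CPM in THP-1 (3.24-fold, edgeR adjusted p = 4.48e-14) and from 25.1 ± 2.46 to 43.4 ± 5.54 in MOLM-13 (1.73-fold, adjusted p = 0.00142). The rise was larger in THP-1 by 0.91 ± 0.18 on the log2 scale (edgeR adjusted p = 0.00437). AZI2 and IKBKG, adaptors of the TBK1 and IKK kinases, rose 1.39-fold and 1.43-fold in THP-1. In MOLM-13 neither was called, and neither was the difference between lines. Of AZI2's exon bases 55.4% are shared with other genes.

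Among 11 tested nucleases and RNA-processing enzymes, 3 rose and 2 fell in THP-1 with both compounds, and 1 rose and 1 fell in MOLM-13, again near the shares of all genes (13.5% each way, and 4.85% higher and 7.35% lower). PNPT1, a mitochondrial enzyme that degrades RNA, rose 1.84-fold in THP-1 and 1.36-fold in MOLM-13, and DNASE2, the lysosomal DNase, rose 1.81-fold in THP-1. RNASET2, a lysosomal RNase, fell 1.57-fold and 1.48-fold. Of the 6 partners of ZBP1 in cell death, CASP8 (1.30-fold), MLKL (1.504-fold) and RIPK1 (1.38-fold) rose in THP-1 with both compounds. This stands beside 13.5% of all genes higher. MLKL spread widely there, from 16.7 ± 1.94 CPM in vehicle to 25.2 ± 5.19 with both, with a median of 22.2 and a maximum of 31.2. In MOLM-13, 0 of the 6 were called. In vehicle and with both compounds CASP8 stood there at 46.6 ± 4.05 and 53.1 ± 4.28 CPM, RIPK1 at 15.0 ± 1.61 and 16.4 ± 0.350, and MLKL at 17.9 ± 1.87 and 17.2 ± 0.513.

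**Figure D4:**
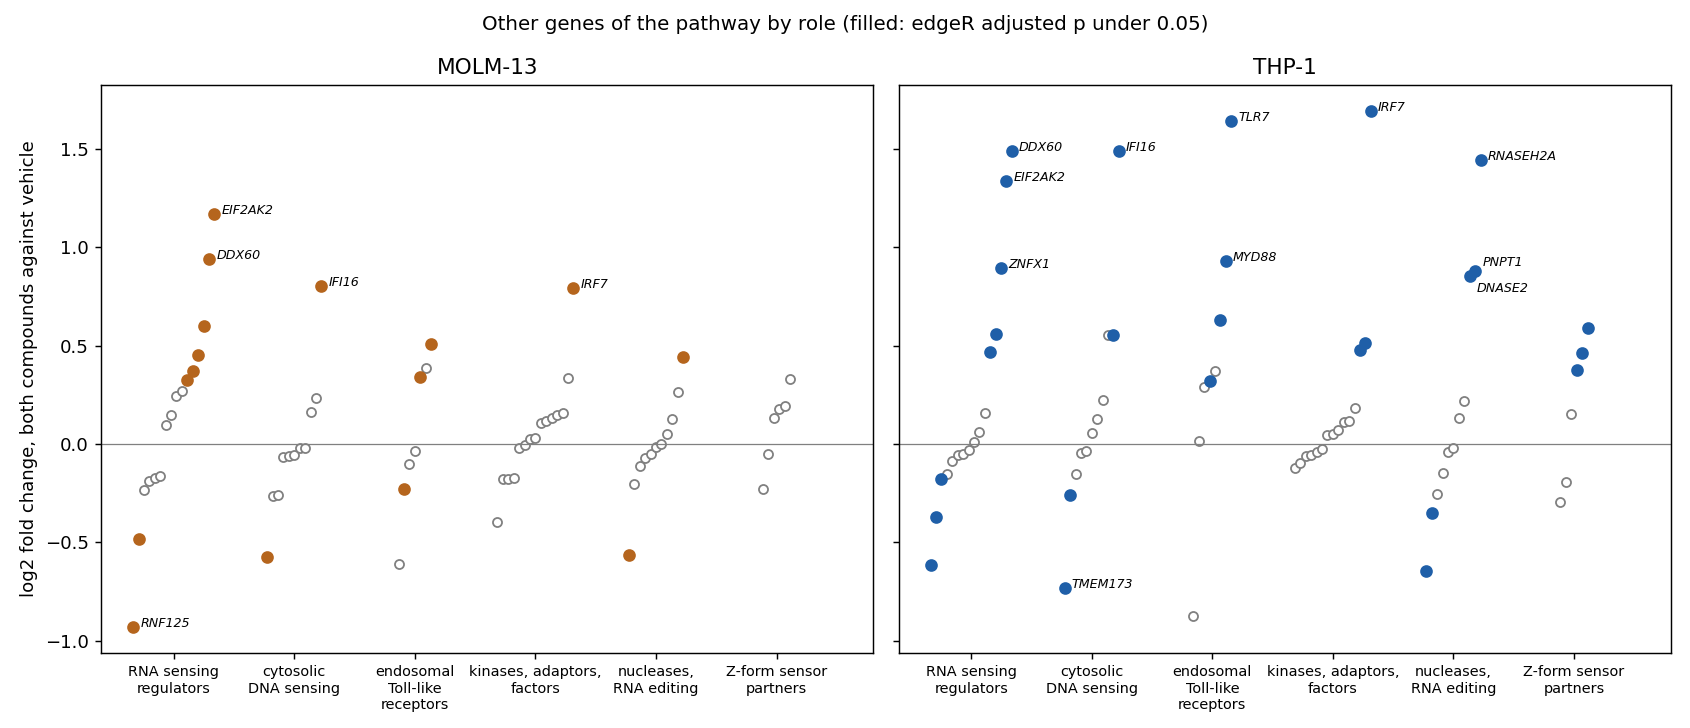
Log2 fold change of both compounds against vehicle for other genes of the pathway by role in each line, each point 1 gene, filled where edgeR's adjusted p was under 0.05. AIM2, whose vehicle libraries held 1 to 3 counts in THP-1, is not drawn, and called genes with a size of at least 0.7 are named. IRF7, IFI16, DDX60 and EIF2AK2 are high in both lines and TMEM173 is the lowest called gene in THP-1.

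The interferon genes themselves were nearly silent at 72 h. Of 22 listed, 17 had no count in any library, and 0 passed the filter. IFNL1 had 11, 13 and 2 counts in the THP-1 libraries with both compounds, 0, 2 and 3 with LAA, 3, 0 and 0 in vehicle and 0 in the 3 with olaparib. IFNB1, named outside the rule as the gene that IRF3 is best known to switch on, had at most 5 counts in a library, with 0, 2 and 4 in THP-1 with both compounds and 1, 0 and 0 in vehicle. At this depth no difference in IFNB1 was detectable.

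Genes with the most similar profile over the 12 libraries of a line were listed as a description. The points share 4 treatment groups, so any gene that the combination moves will score high, and no p is given. In THP-1 the closest protein-coding genes included DTX3L (r = 0.996) and IFIT3 for DDX58, OAS2 (r = 0.997), EIF2AK2 and CMPK2 for IFIH1, SIGLEC1 (r = 0.991), IFITM1 and IFITM3 for DHX58, and RNF213 (r = 0.991) and PNPT1 for ADAR, many of them known interferon-stimulated genes. SAMHD1 was closest to SLC39A14 (r = 0.966), TBK1 to RSBN1 (r = 0.984), IRF3 to TIMM50 (r = 0.944) and MAVS to ECEL1 (r = 0.897). In MOLM-13 IFIH1 was closest to IFIT2 (r = 0.978) and ADAR to SAMD9L (r = 0.987), also interferon-stimulated. Next for ADAR there were PARP14 (r = 0.983) and ALDH1L2 (r = 0.981). DDX58 was as close to IARS, a tRNA synthetase, as to OAS1 (r = 0.974 for both), and NARS came next (r = 0.968). SAMHD1 was closest there to CHURC1 (r = 0.977) and CD38, and DHX58 to PSMD11 (r = 0.970).

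By position (hg38), DDX58 (ENSG00000107201) lies at chr9:32455705-32526324, IFIH1 (ENSG00000115267) at chr2:162267079-162318703, DHX58 (ENSG00000108771) at chr17:42101404-42112733, IRF3 (ENSG00000126456) at chr19:49659569-49665875, SAMHD1 (ENSG00000101347) at chr20:36889773-36951901, ADAR (ENSG00000160710) at chr1:154582057-154628013 and ZBP1 (ENSG00000124256) at chr20:57603846-57620576, all on the minus strand. MAVS (ENSG00000088888) lies at chr20:3846799-3876123, TBK1 (ENSG00000183735) at chr12:64451880-64502108 and TREX1 (ENSG00000213689) at chr3:48465811-48467645 on the plus strand. Values are for whole protein-coding genes, exons summed, so isoforms such as the long and short forms of ADAR are not told apart.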

How the data were processed

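Poly(A)-selected RNA of 24 libraries (8 groups of 3) was sequenced. Per the submitters' processing notes, HISAT2, SAMtools and DESeq2 were used with hg38. No read counter is given in the sources used here. The authors deposited read counts and FPKM per gene for 58735 genes. Counts were tested with edgeR 4.0.16 (quasi-likelihood, default low-count filter, TMM scaling, R 4.3.3, Benjamini-Hochberg), in 1 fit per line (16160 genes in MOLM-13, 16331 in THP-1) and in 1 fit of all 24 libraries for differences between lines (17089 genes). The deposited FPKM served to compare levels between genes and, as log2(FPKM + 1) and log2(FPKM + 0.1) with limma 3.58.1, as alternatives. CPM values use TMM factors from all libraries. The members, lists and motifs were chosen with earlier results of these data known. Named from each list were up to 3 called genes of smallest p in THP-1 and 2 in MOLM-13 with both compounds, interferon genes with at least 10 counts in a library, and the 3 closest profiles, of which 1 gene is not reported here. Genes named outside this rule are said to be so. Replicates of a group differed beyond sampling noise (chi-square per degree of freedom at least 3.87). Gene models from GENCODE 29 gave exon overlaps, and RefSeq (GRCh38.p14) gave promoters.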

Additional observations from a re-analysis of the deposited data

Results flagged for a closer look

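Results are listed here because the effect of a treatment differed between the lines by a test of the difference itself, in edgeR's fit of all 24 libraries. The LAA effect on DDX58 was larger in THP-1 by 0.95 on the log2 scale. The effect of both compounds was larger in THP-1 by 1.34 for DDX58, by 1.24 for DHX58 and by 0.45 for SAMHD1. In THP-1 all 3 libraries with both compounds lay above all 3 vehicle libraries for each of these genes. In MOLM-13 this held for DDX58 and DHX58, while all 3 SAMHD1 values lay below vehicle. These genes were picked by a test on the same libraries, so the gaps describe the values and add no support. The share of all genes with such gaps was not counted.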

How the results depend on the processing

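Of 55 calls on single genes, 45 held under every alternative tried (total-count scaling, DESeq2, no filter or a stricter one, limma on FPKM, a replicate block, 1 fit of all libraries, each library of the compared groups left out), 10 were lost under some, and 0 reversed. For the interaction in MOLM-13 (2 genes) the count was 4 by DESeq2 and in 1 fit of all 24 libraries, 1 by limma on log2(FPKM + 1) and on log2(FPKM + 0.1), and 1 to 3 with a library left out. For olaparib in THP-1 (0 genes) DESeq2 gave 1. For the line difference in the LAA effect (1 gene) total-count scaling, DESeq2 and limma with either pseudocount gave 2, and 1 to 2 were called with a library left out. With a library left out, 3 to 5 of the 6 genes were called for both compounds against LAA in MOLM-13, and 4 to 7 of 7 for the THP-1 interaction. Counts over all genes moved too under the alternatives. They went from 2413 to between 1029 and 3168 for both compounds against LAA in MOLM-13. For the interaction they went from 329 to between 206 and 555 in MOLM-13 and from 1237 to between 798 and 1483 in THP-1. The cause was not tested. Among single genes, limma on FPKM also ended the calls of ADAR with LAA in THP-1 (adjusted p 0.0533 and 0.0569) and of IFIH1 in the MOLM-13 interaction (0.0614 and 0.0796). In the THP-1 interaction limma and 1 edgeR fit of all libraries ended those of IRF3 (adjusted p 0.0509, 0.0513 and 0.102) and TBK1 (0.0597, 0.0595 and 0.0530). Counts over all genes moved by over 1.5 times in several comparisons, among them olaparib in MOLM-13 from 1 to between 0 and 194, olaparib in THP-1 from 44 to between 6 and 124, LAA in THP-1 from 243 to between 114 and 388, LAA in MOLM-13 from 303 to between 113 and 575, both compounds in MOLM-13 from 1971 to between 1043 and 2534, the line difference in the LAA effect from 24 to between 13 and 102 and that in the effect of both from 364 to between 211 and 660. Replicate numbers did not pair the libraries: deviations of same-numbered libraries correlated between -0.086 and 0.116. With the replicate block, ADAR with LAA in THP-1 lost its call (0.23, adjusted p = 0.0553, edgeR) and ADAR in the MOLM-13 interaction gained one (0.51, adjusted p = 0.0492). Depth limits ZBP1, AIM2, IFNL1 and IFNB1.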
